A study of Bos taurus with 14 samples.

Results

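The neuronal cytoskeleton genes described here are 8 of the 23159 features used in the files of early stem cells and controls: STMN1, STMN2, CRMP1, TUBB3, NES, GFAP, DPYSL3 and DCX. They were chosen by symbol, because STMN2 and CRMP1 were abundant in bovine embryonic stem cells (bESC) at passage 10 (P10) and near 0 in every control; no numeric threshold was set. All 8 had a row in those files. In the later passages 7 had a row among 24616 features, and STMN1 was not analysed there.

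Total RNA was measured by RNA-seq in 14 cattle libraries. The stem cells were CTFR-bESC lines A and B, each derived from blastocysts. Both lines were kept in wells with mouse embryonic fibroblasts (MEFs), in CTFR medium to which FGF2 and IWR1, a blocker of WNT signalling, had been added. All stem cell libraries share these conditions, and the labels do not say whether MEFs were removed before RNA extraction. Line B gave libraries at passages 10, 12, 24, 35 and 46, and line A at 10, 13, 23, 35 and 45. The 4 controls were 2 in vivo blastocyst pools of 10 whole embryos, in which all embryonic lineages are mixed, and 2 lines of skin fibroblasts. Passages of a line are serial samples of 1 culture, so the p-values among later libraries measure only how much passages of a culture vary. Nothing says that the 2 blastocyst pools, or the 2 fibroblast lines, came from separate donors, so the p-values between controls measure only the spread of these samples.

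Values are RPKM, reads scaled to gene length and library size, as the authors deposited them. No read counts were given, so depth in reads is unknown. The P10 and control files form a first set and the 8 later files a second set with another list of features. The RPKM of a library summed to between 349527 and 435754 in the first set, and to between 475822 and 501373 in the later one. The 2 most abundant features took 64.0% to 65.8% of the summed RPKM in the blastocyst pools and 2.08% to 3.36% elsewhere, so the other genes shared a smaller remainder in the pools. Every library lists GAPDH at 0, so a 0 can be a failed estimate, and no fold change is given against it. Of the defining markers, POU5F1 had 223 and 151 RPKM at P10, against a listing at 0 in each fibroblast line. COL1A1 measured 1564 and 1706 RPKM in fibroblast lines A and B, and CDX2 measured 13.8 and 15.9 RPKM in blastocyst pools A and B.

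The proteins of these genes build or regulate the cell's internal filaments. Stathmins bind tubulin dimers and promote the shortening of microtubules. The CRMP proteins, CRMP1 and DPYSL3 among them, act in axon growth and guidance by binding tubulin and actin regulators, and doublecortin (DCX) stabilises microtubules in migrating young neurons. TUBB3 is the beta tubulin used as a marker of neurons, NES is an intermediate filament of neural progenitors that other dividing cells also make, and GFAP is the intermediate filament of astrocytes.

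STMN2, the neuronal stathmin, was among the most abundant transcripts of the stem cells. At P10 it measured 517 RPKM in line A and 401 RPKM in line B, against values listed at 0 in both blastocyst pools and both fibroblast lines. These are ranks 103 and 130 among 23159 features. In line B it stood at 467, 416, 518 and 445 RPKM at P12, P24, P35 and P46. In line A it stood at 615, 473, 575 and 506 RPKM at P13, P23, P35 and P45. Every later library was thus within ranks 126 to 177 of 24616 features, and the later libraries (502 RPKM on average) overlapped the P10 libraries (459 RPKM on average). In bulk RNA such a level may come from many cells or from a few with more RNA each, which cannot be told apart.

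STMN1, the stathmin of dividing cells in general, had a different pattern among the controls. It measured 633 and 507 RPKM at P10 in lines A and B, against 11.52 and 12.38 RPKM in the blastocyst pools and 118 and 124 RPKM in the fibroblast lines. The P10 libraries stood above all 4 controls, at 47.7 times the blastocyst mean and 4.71 times the fibroblast mean. The distance from blastocysts depends on the scaling. On the log2(RPKM + 1) scale it was 5.45 as deposited and 4.33 after quantile normalisation. It was 4.17 without the 2 most abundant features and 3.70 after median-of-ratios scaling. Proliferation markers, given here as the summed RPKM of MKI67, TOP2A, CCNB1, CDK1, MCM2 and PCNA, ran from 594 to 668 at P10, from 158.1 to 158.3 in blastocysts and from 113 to 171 in fibroblasts. By limma, 1 of the 6 markers was called higher and 1 lower in blastocysts than in fibroblasts as deposited. After quantile normalisation, median-of-ratios scaling or without the 2 most abundant features, 5 were called higher and 0 lower. The part of these markers in the STMN1 level was not tested.

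The other stathmins were low. STMN3 reached 3.15 to 4.82 RPKM in the later stem cells, 1.62 and 2.57 RPKM at P10, and at most 0.109 RPKM in the controls. STMN4 ran from 0.789 to 7.51 RPKM in the later stem cells and was 0.419 and 0.451 RPKM at P10, with all 4 controls listed at 0. Among the 3 stathmins with rows in both sets, STMN2 took 97.7% to 99.4% of the summed RPKM in later stem cells and 99.3% to 99.6% at P10.

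CRMP1 varied less between the later libraries than the other 6 genes measured there. At P10 line A had 100.5 and line B 105 RPKM, against 0.04 and 0.348 RPKM in the blastocyst pools and values listed at 0 in both fibroblast lines. In line B it was 80.3, 84.5, 87.1 and 81.8 RPKM from P12 to P46, and in line A 102, 78.7, 95.7 and 82.6 RPKM from P13 to P45. Its coefficient of variation over the 8 later libraries was 9.29%, against 12.4% for NES, 13.3% for STMN2 and 31.1% for DCX at the other end.

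DPYSL3, a CRMP that many growing cells use, did not separate stem cells from fibroblasts. It measured 35.8 and 45.1 RPKM at P10 in lines A and B, against 1.83 and 1.43 RPKM in the blastocyst pools and 33.2 and 62.8 RPKM in the fibroblast lines. The P10 values lay within the fibroblast range, while both were above both pools. In line B it was 28.8, 25.2, 37.4 and 23.1 RPKM from P12 to P46, and in line A 45.2, 19.4, 33.2 and 22.1 RPKM from P13 to P45.

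The whole CRMP family was present in the stem cells. All 5 members reached 1 RPKM in every stem cell library, against 2 in both blastocyst pools and 2 in both fibroblast lines. Of all features 46.8% did so in later stem cells, 45.3% at P10, 30.5% in blastocysts and 41.8% in fibroblasts. DPYSL2, the broadly used CRMP, ran from 99.4 to 124 RPKM in later stem cells and from 89.2 to 132 RPKM at P10, against 67.4 and 73.6 RPKM in fibroblasts and 5.599 and 6.601 RPKM in blastocysts. DPYSL5 had 43.1 and 31.0 RPKM at P10 and at most 0.144 RPKM in any control. DPYSL4 measured 35.5 and 16.9 RPKM there, against at most 0.999 RPKM in a control. CRMP1 took 28.0% to 31.9% of the family's summed RPKM in later stem cells and 29.0% to 36.7% at P10. How the authors' counting split reads between related family members is not given in the sources used here.

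DCX was low in the stem cells but lower still in every control. It measured 3.07 and 2.90 RPKM at P10 in lines A and B, against values listed at 0 in both pools and 0.123 and 0.079 RPKM in the fibroblast lines. In line B it was 1.70, 1.77, 2.56 and 1.34 RPKM from P12 to P46, and in line A 3.17, 1.47, 2.27 and 1.69 RPKM from P13 to P45. Its relatives DCLK1 and DCLK2, microtubule-binding kinases, stood at 1.48 to 3.499 and 1.65 to 4.86 RPKM in the later libraries, and DCLK3 stayed under 1 RPKM in all 14.

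TUBB3 measured 77.0 and 84.1 RPKM at P10 in lines A and B, against 3.15 and 1.64 RPKM in the blastocyst pools and 14.6 and 7.73 RPKM in the fibroblast lines. Both P10 libraries were above all 4 controls, at 33.7 times the blastocyst mean and 7.22 times the fibroblast mean. The distance from blastocysts on the log2(RPKM + 1) scale was 4.62 as deposited and 3.16 after quantile normalisation. It was 3.54 without the 2 most abundant features and 3.08 after median-of-ratios scaling. Line B had 91.3, 103, 107 and 109 RPKM from P12 to P46, and line A had 127, 106, 145 and 109.5 RPKM from P13 to P45. All 8 later libraries stood above both P10 libraries.

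TUBB3 was nevertheless a minor beta tubulin. TUBB, the general form, ran from 1249 to 1705 RPKM in later stem cells. TUBB4B ran from 225 to 299.5 RPKM and TUBB2B from 140.0 to 221 RPKM in the same libraries. Over the 6 beta tubulins with rows in both sets, TUBB3 took 4.23% to 7.55% of the summed RPKM in later stem cells and 4.57% to 4.98% at P10, against 0.913% to 1.48% in blastocysts and 0.962% to 1.85% in fibroblasts. TUBB6, a beta tubulin of non-neural cells, was 40.4 to 55.5 RPKM in later stem cells and 177 to 182 RPKM in fibroblasts. Beta tubulin sequences are alike, so reads may have been shared among these genes.

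NES was present in the stem cells and in fibroblasts. It measured 53.6 and 51.2 RPKM at P10 in lines A and B, against 3.095 and 2.387 RPKM in the blastocyst pools and 52.9 and 131.5 RPKM in the fibroblast lines. The P10 libraries were above both pools and overlapped the fibroblasts. In line B it was 70.2, 57.8, 83.2 and 73.0 RPKM from P12 to P46, and in line A 62.2, 78.7, 62.4 and 72.2 RPKM from P13 to P45. VIM, the intermediate filament of mesenchymal cells, was far above the pools in every other library and highest in fibroblasts, with 523 to 818 RPKM in later stem cells, 553 and 796 RPKM at P10, 5799 to 7000 RPKM in fibroblasts and at most 0.11 RPKM in the pools.

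Fibroblast and mesenchyme markers were, in sum, much lower in the stem cell libraries than in fibroblasts. All 12 had rows, and their summed RPKM ran from 224 to 368 in the later libraries and from 112 to 245 at P10, against 20.4 to 25.1 in blastocysts and 9507 to 9778 in fibroblasts. FAP, a defining fibroblast protease, did not exceed 0.128 RPKM in any stem cell library. The collagen gene COL1A1 ran from 68.8 to 89.8 RPKM in the later libraries, against 1564 and 1706 RPKM in fibroblasts, and LUM, a matrix proteoglycan, from 34.9 to 84.3 RPKM, against 715 and 874 RPKM. POSTN, a matrix protein, overlapped the fibroblasts, at 4.43 to 29.5 RPKM in the later libraries, against 1.59 and 11.1 RPKM in fibroblasts. The part of these transcripts, or of feeder RNA, in the NES, DPYSL3 and VIM levels was not tested.

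GFAP was under 1 RPKM in the first set and low in the later one. It was 0.06 and 0.557 RPKM at P10 in lines A and B, 0 and 0.09 RPKM in the blastocyst pools, and 0.038 and 0.036 RPKM in the fibroblast lines. In line B it was 0.997, 1.48, 1.76 and 1.62 RPKM from P12 to P46, and in line A 1.02, 1.60, 1.85 and 1.45 RPKM from P13 to P45. All 8 later libraries stood above both P10 libraries and overlapped the RPKM range of DCX in the later libraries.

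**Figure D1:**
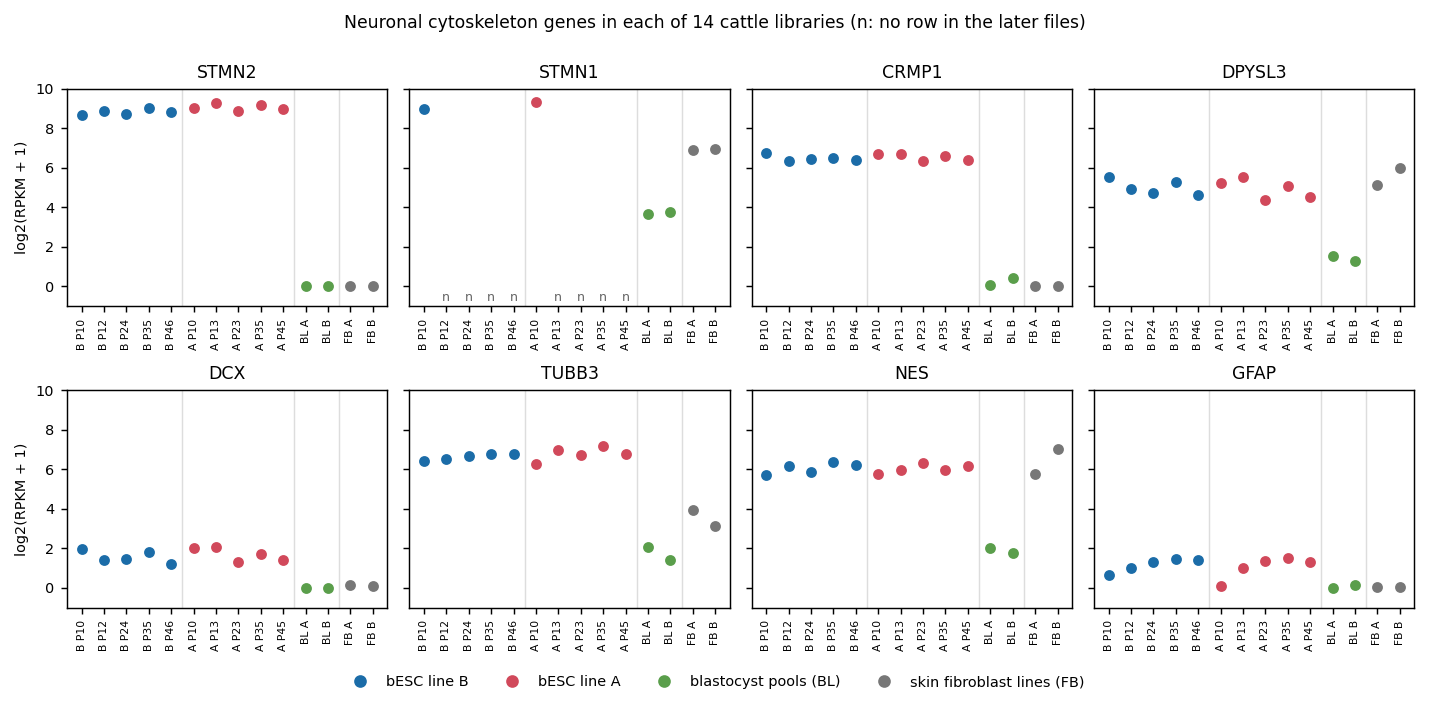
Each point is 1 library; the y axis is log2(RPKM + 1) and the x axis gives stem cell line B and line A by passage, then blastocyst pools (BL) and skin fibroblast lines (FB), with n where there is no row. STMN2 lies between 401 and 615 RPKM in all 10 stem cell libraries and at 0 in all 4 controls, while NES and DPYSL3 overlap the fibroblasts.

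Counted together, both P10 libraries stood above all 4 controls for 5 of the 8 genes: STMN1, STMN2, CRMP1, TUBB3 and DCX. The same held for 4940 of the 11761 features kept in the first set, or 42.0%. Since 2 of the genes were chosen on this contrast, no test is given and nothing is read from the count. The median gene was 1.43 higher at P10 than in blastocysts on the log2(RPKM + 1) scale, and 0.23 higher than in fibroblasts. Relative to the median gene, STMN1 was 4.03 above blastocysts and 1.99 above fibroblasts, and TUBB3 was 3.20 and 2.57 above them. NES was 2.41 above blastocysts and stood at -0.89 against fibroblasts, and DPYSL3 was 2.55 above blastocysts and at -0.41 against fibroblasts. These comparisons share the P10 libraries.

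**Figure D2:**
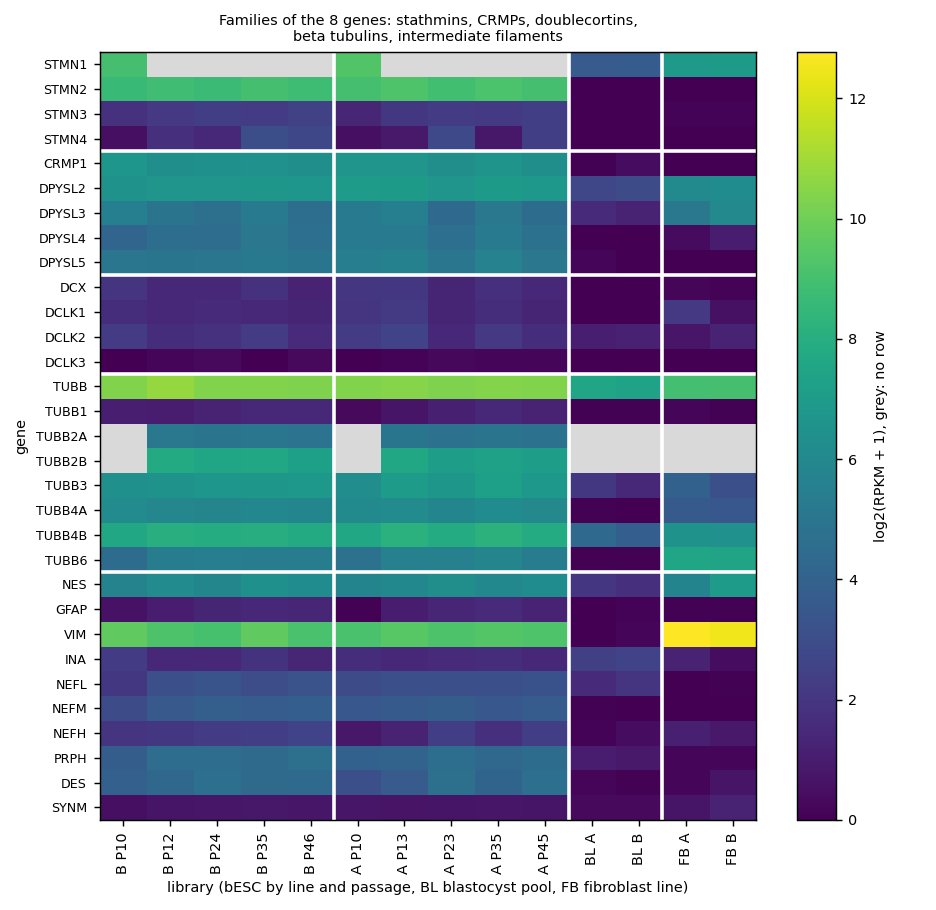
The colour gives log2(RPKM + 1) for each family member (rows) in each library (columns: stem cell line B, stem cell line A, blastocyst pools BL, fibroblast lines FB); grey marks genes with no row. CRMP1, DPYSL4 and DPYSL5 are at 16.9 RPKM or more in every stem cell library and at 0.999 RPKM or less in every control, and VIM is brightest in fibroblasts at 5799 to 7000 RPKM.

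Of the genes chosen here and measured at both stages, TUBB3, NES and GFAP stood higher in the later libraries. All 8 later libraries were above both P10 libraries for TUBB3 (1.40 times the P10 mean), NES (1.33 times) and GFAP, 3 of the 7 genes with rows in both sets. For GFAP the later mean was 2.645 times the P10 value of line B and 24.55 times that of line A, so its size depends on the P10 library. Over all features compared, 2837 of 10726, or 26.4%, did so. None of the 7 genes was below both P10 libraries in all 8, against 1049 features, or 9.78%. STMN2, CRMP1, DPYSL3 and DCX overlapped. The sets have different feature lists and may have been normalised separately, so no test was made across them. The summed RPKM was itself 1.38 times as high in the later libraries as at P10, which is close to the TUBB3 and NES ratios. The median gene stood 0.09 higher on the log2 scale, against 0.46 for TUBB3 and 0.40 for NES. The smallest values under the other scalings were 0.27 for TUBB3 and 0.21 for NES, both without the 2 most abundant features. There the median gene stood at -0.08. Relative to the median gene, TUBB3 ran from 0.32 to 0.38 and NES from 0.28 to 0.31 over the values as deposited and the other scalings. The part of the summed RPKM in these ratios was not tested.

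The later libraries played no part in the choice of the genes, and here the lines and the passages could be compared by limma. No gene of the 7 was called in any of the 3 tests. For the line difference, in which line B is set against line A, 0 of 7 passed an adjusted p under 0.05, and 0 of 7 had an unadjusted p under 0.05. Over all 12785 genes tested 2 were called, or 0.0156%, both higher in line B, and 755 had an unadjusted p under 0.05. They were SYCP3, a gene of the meiotic synaptonemal complex, and ULBP3, an immune ligand gene, both named after their values were seen.

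STMN2 averaged 462 ± 43.3 RPKM in line B and 542 ± 64.6 RPKM in line A (SD, n = 4 each). Its log2 difference was -0.23 ± 0.11 (SE) with a 95% interval of -0.47 to 0.02 (limma, adjusted p = 0.734). TUBB3 averaged 103 ± 8.09 RPKM in line B and 122 ± 18.0 RPKM in line A, a log2 difference of -0.24 ± 0.11 with an interval of -0.49 to 0.015 (adjusted p = 0.734). The lines overlapped for both genes, and for CRMP1, NES, GFAP, DPYSL3 and DCX as well. For these the log2 differences were -0.095 ± 0.092, 0.039 ± 0.121, -0.012 ± 0.127, -0.006 ± 0.249 and -0.135 ± 0.188, and none of the 95% intervals excluded 0. That of DPYSL3 ran from -0.575 to 0.562, so a line difference of a size within that range was not detectable here.

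Nor was a trend with passage called. Per 10 passages, STMN2 and CRMP1 each had a slope of -0.02 ± 0.04 log2 (limma, adjusted p = 0.973 and 0.969). TUBB3 had a slope of 0.033 ± 0.045, NES of 0.042 ± 0.049, DCX of -0.074 ± 0.076 and DPYSL3 of -0.111 ± 0.101, all with an adjusted p of 0.961. GFAP had the largest positive slope of the 7, 0.105 ± 0.051, with an interval of -0.013 to 0.222 (adjusted p = 0.961). Over all genes 0 of 12785 were called, or 0.0%, with 494 at an unadjusted p under 0.05. In a test of whether the slope differed between line B and line A, 0 of 7 genes and 0 of 12785, or 0.0%, were called, with 83 at an unadjusted p under 0.05, and all 7 genes had 95% intervals that included 0.

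**Figure D3:**
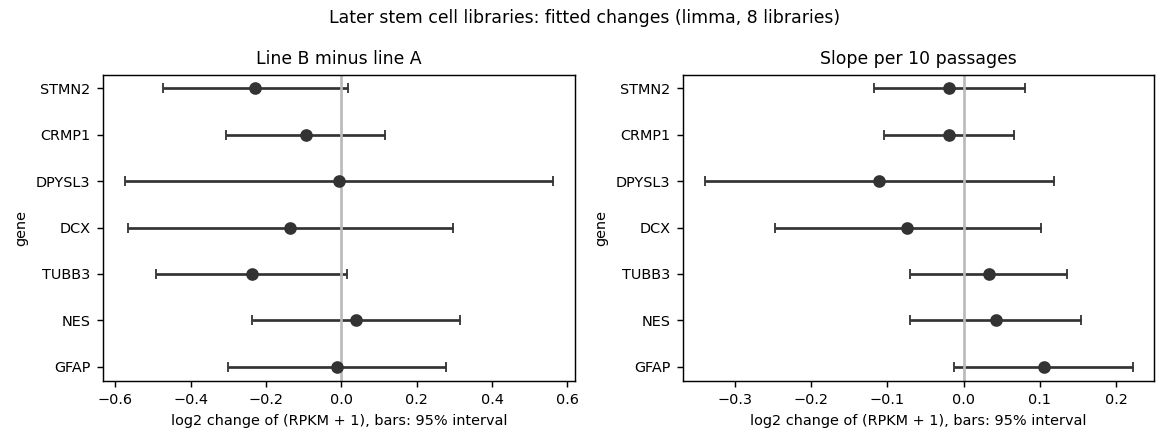
Points give the fitted log2 change of (RPKM + 1) in the 8 later stem cell libraries, left for line B minus line A and right per 10 passages, and bars give 95% intervals. All intervals include 0, and those of DPYSL3 and DCX are widest.

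Line A at P13, line A at P35 and line B at P35 were taken as the highest 3 later libraries for STMN2, which therefore meets this pattern by definition. They were also the highest 3 for CRMP1, DPYSL3 and DCX, so that 4 of the 7 genes had this order with STMN2 counted. The same 3 were highest for 2669 of all 12785 genes, or 20.9%, so this order is shared by many genes. In these libraries DPYSL3 ran from 33.2 to 45.2 RPKM and in the other 5 from 19.4 to 28.8 RPKM. DCX ran from 2.27 to 3.17 RPKM against 1.34 to 1.77 RPKM, and STMN2 from 518 to 615 RPKM against 416 to 506 RPKM. Over all genes these 3 had positive scores on a principal component that held 52.5% of the variance, at 33.2, 26.6 and 7.53, with the other 5 between -6.85 and -19.4. They did not form a separate group there, since line B at P35 lay nearer to line B at P12 than to line A at P35. The libraries were grouped after their values were seen, so no test is given.

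TUBB3, NES and GFAP did not have those 3 libraries highest. TUBB3 was highest in line A at P35 and P13, and line B at P35 came in the fifth place. NES was highest in line B at P35, but line A at P35 and P13 came sixth and seventh. GFAP was lowest in the first later library of each line, P12 in line B and P13 in line A. Within the CRMP family, DPYSL4 and DPYSL5 had the same top 3 libraries as CRMP1. The summed neuron markers ran from 299 to 341 RPKM in the 3 libraries and from 259.5 to 273 RPKM in the other 5. This sum was carried largely by UCHL1, at 208, 224 and 160 RPKM in line A at P13, line A at P35 and line B at P35. UCHL1 was 150.1 to 163 RPKM in the other 5, so line B at P35 lay within their range. Summed trophectoderm markers, carried by the keratins KRT8 and KRT18, were 235 and 340.5 RPKM in line A at P13 and P35, 647 RPKM in line B at P35 and 536 to 788 RPKM in the other 5. Summed fibroblast markers overlapped between the libraries, at 293 to 368 RPKM against 224 to 319 RPKM. The part of any of these in the order was not tested.

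**Figure D4:**
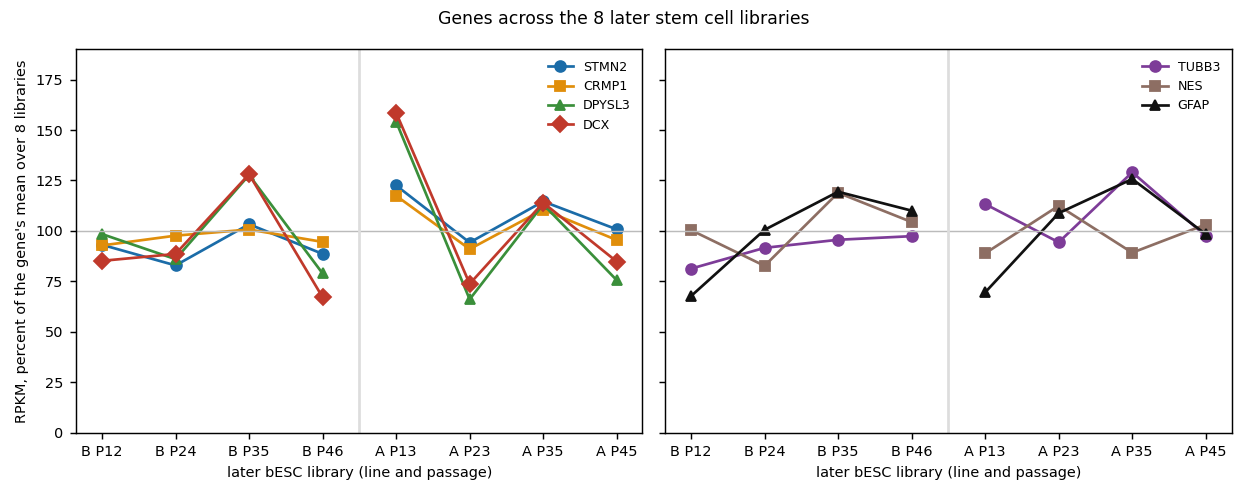
Each gene's RPKM is drawn as a percent of its mean over the 8 later libraries, by line and passage, with lines joining the passages of 1 culture. In the left panel STMN2, CRMP1, DPYSL3 and DCX are all highest in line A at P13 and P35 and line B at P35, and in the right panel TUBB3, NES and GFAP differ from one another.

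The blastocysts and fibroblasts, a contrast that the choice of genes did not use, could be compared for 4 of the genes, and NES, DPYSL3 and STMN1 were lower in blastocysts under every scaling tried. The filter of at least 1 RPKM in 2 libraries kept 7 of the 8 genes in this set and left out GFAP. STMN2, CRMP1 and DCX were under 1 RPKM in all 4 controls and were kept through the P10 libraries alone, so no result is read for them. All 4 remaining genes were called lower in blastocysts by limma, against a background of 63.4% of 11761 genes called lower, so the share says little about these genes. On the log2 scale NES was at -4.50 ± 0.40 (SE, adjusted p = 8.45e-05) and DPYSL3 at -4.15 ± 0.31 (adjusted p = 4.6e-05). STMN1 was at -3.24 ± 0.18 (adjusted p = 1.74e-05) and TUBB3 at -1.82 ± 0.34 (adjusted p = 0.0024). Relative to the median gene of the contrast, which stood at -1.15, these were -3.35, -3.001, -2.08 and -0.67 for NES, DPYSL3, STMN1 and TUBB3. The calls over all genes were 1289 higher and 7457 lower as deposited, 3694 and 3897 after quantile normalisation, 3545 and 4276 after median-of-ratios scaling and 3500 and 4213 without the 2 most abundant features. The TUBB3 call was lost under those scalings, at adjusted p = 0.414, 0.19 and 0.179.

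Related gene lists were counted in the same contrast over genes that reached 1 RPKM in 2 or more of the 4 controls, a limit set after the values were seen, so that no gene enters through the P10 libraries. Of 10444 such genes 68.7% were called lower and 11.6% higher in blastocysts, and a gene that reached 1 RPKM in only one of the groups, such as TUBB4A, VIM or MAP1A in fibroblasts and NEFL in blastocysts, had to differ. The counts are therefore a description. Beta tubulins were called lower in 5 of 5, with TUBB6 at -7.43 ± 0.17, TUBB4A at -3.52 ± 0.18 and TUBB4B at -2.37 ± 0.22; under each of the other 3 scalings these 3 alone were called. Alpha tubulins were called lower in 3 and higher in 1 of 4, the higher being TUBA1C at 2.60 ± 0.17, and of those lower only TUBA1A, at -3.21 ± 0.18, was called under the other scalings. Of the CRMPs DPYSL2, at -3.33 ± 0.23, and DPYSL3 met the limit, and of the stathmins STMN1 alone; these 3 were called lower under every scaling. Of the doublecortin family DCLK2 alone met it, at 0.12 ± 0.21, and was called higher under the other 3 scalings only. Intermediate filaments were called lower in 2 and higher in 2 of 4 under every scaling, with VIM at -12.6 ± 0.23 and NEFL at 1.72 ± 0.32. Microtubule-associated proteins were called lower in 3 of 3, led by MAP1A at -4.43 ± 0.19, but under the other 3 scalings MAP1A alone was lower and MAP4 was called higher, which turned its direction round from -0.58 ± 0.17 as deposited. In the later libraries limma called 0 genes of the 16 lists for line, slope or slope difference; unadjusted p-values under 0.05 were held by at most 3 genes of a list.

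Neuron markers outside the cytoskeleton were also detected in the stem cells, at levels mostly far under STMN2. Of 17 with rows, 12 reached 1 RPKM in all 8 later libraries and 11 in both P10 libraries, against 1 in both blastocyst pools and 2 in both fibroblast lines. For all features the same shares were 46.8% in later stem cells, 45.3% at P10, 30.5% in blastocysts and 41.8% in fibroblasts. UCHL1, a ubiquitin hydrolase of neurons that is also made elsewhere, led with 150.1 to 224 RPKM in later stem cells and 166.5 and 140.0 RPKM at P10 in lines A and B, against 0.37 and 0.09 RPKM in blastocysts and 45.7 and 43.2 RPKM in fibroblasts. CHGA, a granule protein of endocrine and nerve cells, ran from 28.6 to 33.5 RPKM in the later libraries and did not exceed 0.084 RPKM in a control. NCAM1, a neural cell adhesion molecule, was 11.1 to 22.2 RPKM in later stem cells. The neuronal RNA-binding gene ELAVL4 stayed under 0.39 RPKM, and CHGB and SCG2, granule proteins, at most 0.341 RPKM in any library. The summed list was 259.5 to 341 RPKM in later stem cells and 245 to 246 RPKM at P10, 3.18 to 3.31 RPKM in blastocysts and 51.1 to 52.9 RPKM in fibroblasts.

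The proneural factors named here were low. NEUROG1, NEUROG2, NEUROD1, NEUROD4, POU3F2 and MYT1, proneural and neuronal transcription factors, were each under 1 RPKM in all 14 libraries, with MYT1 at up to 0.917 RPKM in stem cells and listed at 0 in the controls. PAX6, a neural progenitor factor measured in the later files, was 2.22 RPKM in line A at P13 and 1.61 RPKM in line B at P35 and under 1 RPKM in the other 6. The list described here had 12 genes with rows in the later files. Of these, 4 reached 1 RPKM in all 8 libraries, against 46.8% of all features. They were SOX1, SOX2, FABP7 and HES5. SOX2, a pluripotency gene that neural progenitors also use, ran from 154 to 205 RPKM in the later libraries and was 151 and 148 RPKM at P10 in lines A and B. FABP7, a fatty acid binding protein of radial glia, was 59.9 to 78.6 RPKM in the later libraries and 66.8 and 109 RPKM at P10, against at most 0.264 RPKM in a control. SOX1 was 1.15 to 6.86 RPKM in the later libraries and 6.40 and 5.85 RPKM at P10. HES5 was 7.22 to 28.0 RPKM in the later libraries and 3.20 and 0 RPKM at P10. Both SOX1 and HES5 were listed at 0 in every control. Of 8 astrocyte markers 3 reached 1 RPKM in all later libraries, against the same 46.8% of all features. These were the glutamine synthetase gene GLUL at 130.4 to 169 RPKM, the aldolase gene ALDOC at 35.4 to 79.2 RPKM and S100B at 2.93 to 6.75 RPKM. ALDOC also had 17.4 and 24.5 RPKM in the fibroblast lines. AQP4 and SLC1A3, a water channel and a glutamate transporter of astrocytes, did not exceed 0.083 and 0.724 RPKM in any stem cell library. SOX9, a neural crest marker, was 5.48 to 12.6 RPKM in the later libraries. Of 6 crest markers 2 reached 1 RPKM in all of them, against 46.8% of all features. The lists are short, so these counts are a description. Neuronal cytoskeleton genes were thus measured in stem cells in which the NEUROG and NEUROD genes named here were under 1 RPKM. SOX1, SOX2 and FABP7 of the same list reached 1 RPKM in every stem cell library, and HES5 in every later one.

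**Figure D5:**
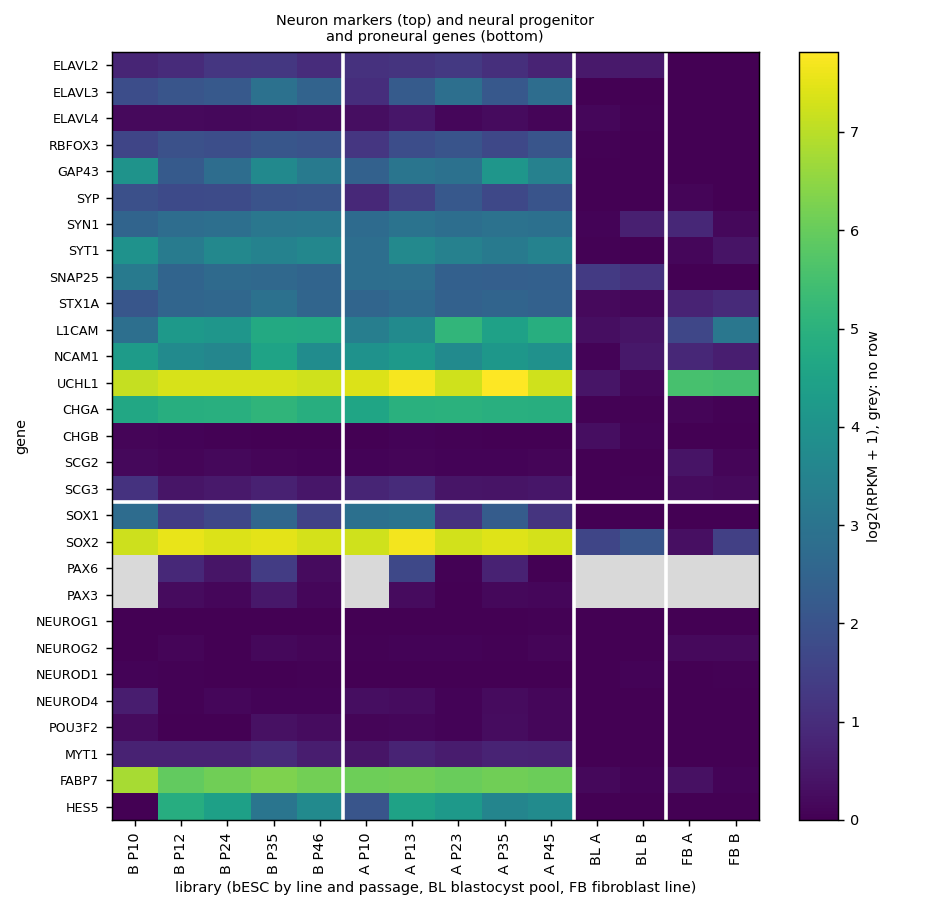
The colour gives log2(RPKM + 1) of neuron markers (top block) and neural progenitor and proneural genes (bottom block) in each library (columns as in the plot of families); grey marks genes with no row. UCHL1, SOX2 and FABP7 are high in all 10 stem cell libraries, and the NEUROG and NEUROD genes are near 0.

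Genes whose products hold neuronal genes silent in other tissues were present as well. REST itself, the factor that binds such genes, was not analysed here. Of its partner complex, 6 genes reached 1 RPKM in all later libraries, led by the histone deacetylase HDAC2 at 267 to 292 RPKM. The 5 with rows in the first set also reached 1 RPKM in both blastocyst pools and both fibroblast lines, so their presence was not particular to the stem cells. HDAC2 was 11.3 and 15.9 RPKM in the pools and 39.2 and 42.9 RPKM in the fibroblast lines. All 5 of the pluripotency markers with rows in the later files reached 1 RPKM in every later library, against 46.8% of all features. These were SOX2, LIN28B, SALL4, DNMT3B and OTX2. POU5F1 and NANOG had no row there, so their levels after P10 are not described.

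Patterns most like STMN2 and CRMP1 over the 14 libraries were taken by Pearson correlation of log2(RPKM + 1) among 5020 genes with a mean of at least 10 RPKM in stem cells. The value is a description, because the libraries form separate groups of stem cells, blastocysts and fibroblasts. Both genes were chosen for being abundant at P10 and near 0 in the controls, so their likeness to each other restates that choice. For STMN2 the nearest were ARID3A (r = 0.999), CCNJL (0.998) and SEMA4D (0.998), and CRMP1 held the fifth place (0.998). For CRMP1 they were STMN2 (0.998), the primed epiblast factor ZIC2 (0.998) and the RNA-binding protein MSI1 (0.998). A correlation over 0.99 was reached by 82 genes for STMN2 and by 66 for CRMP1. TUBB3 held place 481 for STMN2 (0.958), and NES and DPYSL3 reached 0.571 and 0.503.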

How the data were processed

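RNA-seq libraries were made with a TruSeq RNA kit, per the labels' protocols. The authors deposited 1 table per library of RPKM values, and read counts were not used here. UMD3.1 and edgeR are named in the submitters' processing notes, with no role stated. For the aligner and the annotation, the sources used here name none. From the first set of files 26 rows with unreadable names, 25 with dates as names and 21 without a number were left out. In the later set 26 names turned to dates in 5 files were restored by row from the others. RefSeq symbols matched 13608 of 23159 and 14547 of 24616 names.

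Values were tested as log2(RPKM + 1) with limma 3.58.1 in R 4.3.3 (empirical Bayes with a mean-variance trend, two-sided), after keeping genes that reached 1 RPKM in 2 or more of the fitted libraries, with Benjamini-Hochberg adjustment over all genes and a call at 0.05. The later fit had terms for line and passage, and a second one their product. The fit of controls held blastocysts, fibroblasts and P10 as 3 groups. Summaries used pandas 2.3.3 and numpy 2.4.6 under Python 3.11.15, and the code was tested on simulated data. Alternatives were other pseudocounts, filters, scalings, moderation, blocks and libraries left out.

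The genes and the 16 lists were chosen with earlier results of these data known. All 8 genes are named. Lists are named by up to 3 called genes with the smallest adjusted p, otherwise by the member with the highest stem cell RPKM; further list genes were named after their values were seen. The 3 nearest patterns are named for STMN2 and CRMP1. Names used are the files' own, with synonyms matched through RefSeq (TUBB is TUBB5 and EHMT2 is BAT8 in the first set). Of the progenitor and proneural list, 1 gene is not reported here.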

Additional observations from a re-analysis of the deposited data

How the results depend on the processing

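Neither the line nor the passage tests called any of the 7 genes under any alternative run, with adjusted p from 0.237 upward for the line difference. The number of genes called between lines was 2 as reported, 5 with a pseudocount of 0.1, 0 without a filter, 1 after quantile normalization, 1 after median-of-ratios scaling, 4 without the 2 most abundant features, 5 with the sampling step as a block and 0 with line A at P13 and P35 both left out. It ran from 0 to 5 when each library was left out in turn, and the slope calls from 0 to 2. The genes called lower in blastocysts numbered 3897 after quantile normalization, 4276 after median-of-ratios scaling and 4213 without the top 2 features, against 7457 as deposited; the total number of calls stayed within 1.5 times.

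Small, uncalled line differences turned sign. With both line A libraries left out CRMP1 was 0.056, NES -0.082, DPYSL3 0.427 and DCX 0.122. Median-of-ratios scaling gave GFAP 0.006 and DPYSL3 0.026, quantile normalization gave DPYSL3 0.029, and the 10 stem cell libraries with a P10 term gave GFAP 0.101 and DPYSL3 0.06. Leaving out single libraries gave -0.033 to 0.129 for NES, -0.095 to 0.044 for GFAP, -0.212 to 0.211 for DPYSL3 and -0.267 to 0.009 for DCX. Slopes turned sign for STMN2 (0.061 by passage class, 0.018 without both libraries, -0.032 to 0.02 without single ones) and CRMP1 (0.013, 0.017 and -0.043 to 0.019), and ran from -0.155 to 0.005 for DPYSL3 and -0.125 to 0.003 for DCX. Slope differences ran from -0.042 to 0.11 for STMN2, -0.026 to 0.103 for CRMP1, -0.019 to 0.128 for TUBB3, -0.102 to 0.154 for GFAP, -0.134 to 0.35 for DPYSL3 and -0.087 to 0.301 for DCX. Without the top 2 features DPYSL3 was 0.03 at P10 minus fibroblasts; later minus P10 STMN2 was -0.097 after quantile normalization and -0.065 without those features. The cause was not tested.

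No strong difference between the letters A and B was common to the groups. The B minus A differences of P10 correlated at -0.079 with blastocysts and -0.099 with fibroblasts, and those of blastocysts at 0.187 with fibroblasts. With a single library per letter in each group, these values cannot settle whether the letters pair the samples. The fit with the letter as a replicate block called 8689 genes, 7415 of them lower, against 8746 and 7457 without it. Depth in reads is unknown, which limits DCX and GFAP most.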

Other observations

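A few genes of the neural lists also varied among the later libraries, and those given here were picked once their values had been seen. SOX1, an early neural transcription factor, was 6.86, 3.88 and 4.93 RPKM in line A at P13, line A at P35 and line B at P35, against 1.15 to 2.20 RPKM in the other 5. PAX6, a neural progenitor factor, was 2.22, 0.669 and 1.61 RPKM there, against 0.0183 to 0.875 RPKM in the other 5, which overlap. MAP1A, a microtubule-associated protein of neurons, was 8.73, 4.84 and 5.06 RPKM against 1.43 to 2.66 RPKM. STMN4 did not follow, with 0.841, 0.789 and 7.51 RPKM against 1.81 to 6.03 RPKM.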
